A study of Danio rerio with 6 samples.

Results

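The zebrafish genes cuzd1.1 and cuzd1.2 are neighbouring copies on chromosome 17, and they are described here in intestinal epithelial cells sorted at 5 days post fertilisation (dpf) and at 3 dpf. They were picked by gene ID, 2 of 32520 genes listed, because earlier work on the same counts had found them near silent at 3 dpf and evenly high in every 5 dpf library. Their difference between the ages and their evenness at 5 dpf are therefore given as descriptions without a test. Of all genes, 22386 passed the filter on low counts, and both copies were among them. Each passed only through its 5 dpf counts.

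All 6 libraries came from fish of the genotype TgKI - cldn15la-tdTomato, a knock-in that puts the red fluorescent protein tdTomato under the gut epithelial claudin gene cldn15la. Embryos were beheaded, pooled and dissociated, and tdTomato-positive cells were sorted. There were 3 libraries at 5 dpf and 3 at 3 dpf, no treatment other than age, and 1 batch label for all. Non-transgenic controls named in the design were not analysed here. The third 3 dpf library is titled 3 dpf and carries 4 dpf in another label, and it was grouped by its title. Each library is a pool of animals, so the spread between libraries measures pools, and nothing in the labels says that pools were raised separately.

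CUZD1 proteins carry CUB domains and a zona pellucida-like domain. CUB domains bind proteins and sugars in many secreted or membrane proteins, and zona pellucida domains let proteins assemble into extracellular filaments, as in the egg coat. In mammals CUZD1 is described in the zymogen granules of pancreatic acinar cells, the cells that store digestive proenzymes such as trypsinogen before release. That mammalian setting is why the replicate pattern of the zebrafish copies is set beside pancreatic enzyme genes. Which cells of the sorted pools held the cuzd1 transcripts cannot be read from bulk RNA.

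On GRCz11, cuzd1.1 (ENSDARG00000089050) lies on chromosome 17 from 21870044 to 21884323, on the minus strand. Its 15 exon blocks add up to 1934 bases within a span of 14280 bases. cuzd1.2 (ENSDARG00000025311) lies from 21833719 to 21859164 on the same strand, and its 16 exon blocks add up to 2612 bases within a span of 25446 bases. The copies stand head to tail, with cuzd1.1 upstream, and 10879 bases separate them. Both gene models hold an intron much longer than the rest. In cuzd1.2 the long intron measures 16969 bases, against 1300 bases for the next longest, and sets a single 60-base block at the 5′ end apart from the other 15. In cuzd1.1 the long intron measures 8706 bases, against 1638 bases for the next longest, and sets a single 175-base block at the 3′ end apart from the other 14. The annotation of the counts holds no other gene whose symbol starts with cuzd1. In the RefSeq table for the later assembly GRCz12tu, matched by symbol, each copy has 1 record and the records are not neighbours. There the cuzd1.2 record lies beside ifi44e, as it does on GRCz11, whereas the cuzd1.1 record lies beside ndufc2. Reads that align equally well to both copies were not counted, so a level can be too low by the share of sequence that the copies have in common, which was not measured here.

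Library totals ran from 112315914 to 125456069 counts at 5 dpf and from 102653637 to 113267448 counts at 3 dpf. Mitochondrial genes took 29.2% of the counts in 5 dpf replicate 1, against 7.91% to 11.4% in the other 5 libraries. That library also had the lowest TMM factor, the composition correction of edgeR, at 0.612 against 1.00 to 1.27 elsewhere. Levels are given as CPM, counts scaled to library size and these factors, or as CPM per kilobase of exon (RPKM) where genes are compared with each other. The sorting marker cldn15la stood at 900.4, 456.7 and 347.0 CPM at 5 dpf, against 682.2, 690.4 and 524.7 CPM at 3 dpf, and the ages overlapped (log2 fold change -0.15, SE 0.37, edgeR adjusted p = 0.779).

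Both copies were abundant at 5 dpf and all but absent at 3 dpf. cuzd1.1 had 22642, 35040 and 30692 counts in the 5 dpf libraries, against 0, 45 and 16 counts in the 3 dpf libraries. cuzd1.2 had 21387, 36121 and 37877 counts at 5 dpf, against 1, 16 and 3 counts at 3 dpf. No 3 dpf library came near any 5 dpf library for either copy.

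On the CPM scale cuzd1.1 read 296.5, 246.0 and 216.0 at 5 dpf, with a mean of 252.8 ± 40.7 (SD, n = 3). At 3 dpf it read 0, 0.398 and 0.127 CPM, with a mean of 0.175 ± 0.203 (SD, n = 3). cuzd1.2 read 280.1, 253.6 and 266.6 CPM at 5 dpf, with a mean of 266.8 ± 13.2 (SD, n = 3), against 0.00954, 0.141 and 0.0238 CPM at 3 dpf, with a mean of 0.0583 ± 0.0724 (SD, n = 3). At 3 dpf the SD was as large as the mean or larger for both copies, so no single 3 dpf level stands for the age. The 0 of cuzd1.1 in 3 dpf replicate 1 allows up to 3 counts, or 0.0286 CPM. The 45 counts in 3 dpf replicate 2 have an exact Poisson 95% interval of 0.290 to 0.532 CPM, which lies above that limit. Such intervals and limits cover counting error only.

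The fitted log2 fold change of 5 dpf over 3 dpf was 10.48 (SE 1.104) for cuzd1.1 and 12.13 (SE 0.80) for cuzd1.2. Among 22386 genes ranked by this value cuzd1.2 stood at 5 and cuzd1.1 at 16. As a ratio of mean CPM the change was 1445-fold for cuzd1.1 and 4578-fold for cuzd1.2. The size of these ratios rests on very few 3 dpf counts. Without 3 dpf replicate 2, which held most of them, the ratio of cuzd1.1 was 3979-fold over the 16 counts left and that of cuzd1.2 was 15990-fold over the 4 counts left. Without 3 dpf replicate 1 the ratios were 963-fold for cuzd1.1 and 3228-fold for cuzd1.2. Without 3 dpf replicate 3, the library with the 4 dpf label, they were 1271-fold for cuzd1.1 and 3534-fold for cuzd1.2. In bulk samples fewer cells of a type and less RNA per cell cannot be told apart.

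**Figure D1:**
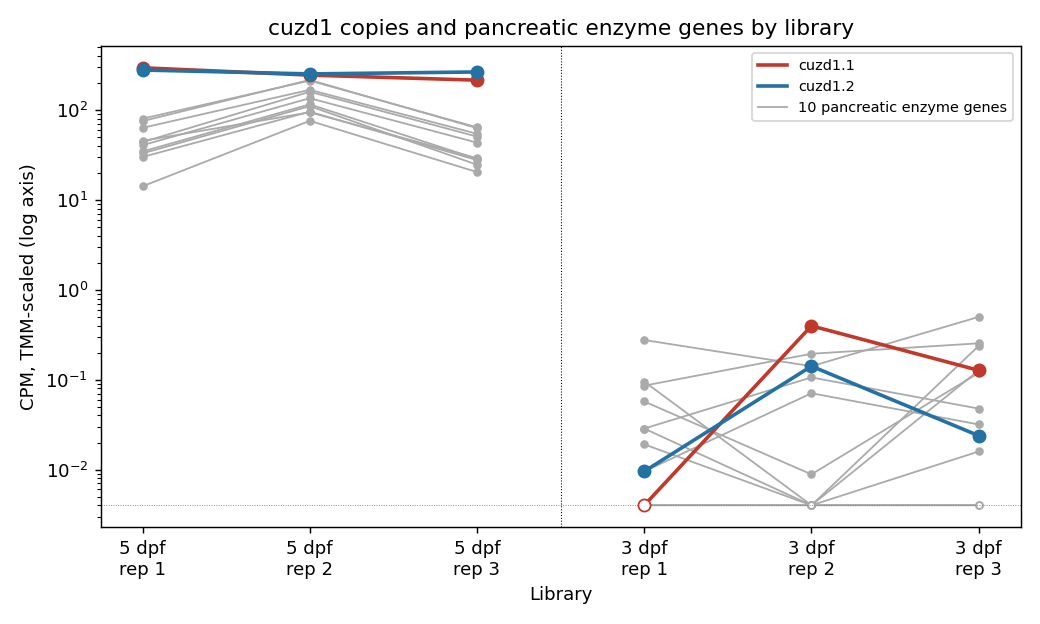
TMM-scaled CPM on a log axis in each library, with 5 dpf left of 3 dpf, for cuzd1.1, cuzd1.2 and the 10 pancreatic enzyme genes of highest RPKM at 5 dpf (grey); open symbols on the dotted line mark 0 counts. Both copies lie between 216.0 and 296.5 CPM in the 5 dpf libraries and at 0.398 CPM or below at 3 dpf, and the enzyme genes peak in 5 dpf replicate 2 where the copies do not.

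Per kilobase of exon, cuzd1.1 stood at 153.3, 127.2 and 111.7 RPKM at 5 dpf, a mean of 130.7 ± 21.0 (SD, n = 3). cuzd1.2 stood at 107.2, 97.1 and 102.1 RPKM at 5 dpf, a mean of 102.1 ± 5.06 (SD, n = 3). By mean RPKM at 5 dpf cuzd1.1 took rank 478 and cuzd1.2 rank 596 of 32520 genes. At 3 dpf the means were 0.0905 ± 0.105 RPKM for cuzd1.1 and 0.0223 ± 0.0277 RPKM for cuzd1.2 (SD, n = 3 each).

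The copies were thus of the same order at 5 dpf, and cuzd1.1 was the higher per kilobase in every 5 dpf library. The ratio of cuzd1.1 to cuzd1.2 per kilobase was 1.43, 1.31 and 1.09, a mean log2 ratio of 0.35 ± 0.20 (SD, n = 3). An exact sign-flip permutation test over the 3 libraries gave p = 0.25 (two-sided), the smallest that 3 libraries allow. In raw counts cuzd1.1, the shorter model, gave 51.4% of the reads of the pair in 5 dpf replicate 1 (Wilson 95% interval 51.0% to 51.9%). Its share was 49.2% (48.9% to 49.6%) in replicate 2 and 44.8% (44.4% to 45.1%) in replicate 3. These intervals cover read counting alone, and at this depth small differences between pools exceed them.

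At 3 dpf the share of cuzd1.1 was 0 of 1 read in replicate 1, an interval of 0% to 79.3%. It was 73.8% of 61 reads in replicate 2 (61.6% to 83.2%) and 84.2% of 19 reads in replicate 3 (62.4% to 94.5%). In the pair of 3 dpf libraries with more than a single read, cuzd1.1 was thus the larger part, and both intervals lie above every 5 dpf share. Pooled over libraries the share was 48.1% at 5 dpf and 75.3% at 3 dpf. Over libraries the mean share was 48.5% ± 3.4 at 5 dpf and 52.7% ± 45.9 at 3 dpf (SD, n = 3 each), a difference of -4.18 percentage points. An exact two-sided permutation test of that difference gave p = 1, with 0.1 the smallest p possible. Without 3 dpf replicate 1, whose share rests on 1 read, the difference was -30.5 points and the exact permutation p was 0.2, the smallest that 3 against 2 libraries allow.

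The 5 dpf levels of the copies varied little between pools. The highest 5 dpf library exceeded the lowest 1.37-fold for cuzd1.1 and 1.104-fold for cuzd1.2, and the coefficient of variation was 16.1% for cuzd1.1 and 4.96% for cuzd1.2. For both copies the highest library was replicate 1. Among 1591 genes with a mean of 100 CPM or more at 5 dpf, 22.7% had a smaller spread than cuzd1.1 and 3.83% a smaller one than cuzd1.2.

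That evenness depends on the scaling. With library size alone, cuzd1.1 read 181.6, 279.3 and 273.3 CPM at 5 dpf and cuzd1.2 read 171.5, 287.9 and 337.2 CPM. Replicate 1, the library with the large mitochondrial share, was then the lowest for both, and the highest exceeded the lowest 1.54-fold for cuzd1.1 and 1.97-fold for cuzd1.2. The upper-quartile and RLE scalings and TMM without mitochondrial genes gave a log2 spread of 0.33 to 0.45 for cuzd1.1 and 0.09 to 0.13 for cuzd1.2, against 0.46 and 0.14 with TMM.

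With TMM, the pair had the most even 5 dpf levels among genes at 100 CPM or more at 5 dpf and under 1 CPM at 3 dpf. Of the 1591 genes at 100 CPM or more at 5 dpf, 15 had a mean under 1 CPM at 3 dpf, both copies included. Over these 15 the log2 spread at 5 dpf ran from 0.14 to 6.52 with a median of 1.90, and cuzd1.2 and cuzd1.1 had the smallest values. The next, vipb, a vasoactive intestinal peptide gene of enteroendocrine and nerve cells, read 139.0, 160.4 and 84.2 CPM at 5 dpf, a 1.90-fold spread. Replicate 1 was the highest library for 10 of the 15 genes. With library size alone cuzd1.1 had the smallest spread of the 15, and zgc:154142 at 1.59-fold and UCP1 at 1.79-fold came before cuzd1.2 at 1.97-fold. The pair was chosen for its evenness, so its place in this order describes the choice.

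Most pancreatic enzyme genes were also far higher at 5 dpf, with a different replicate pattern. The list holds 31 genes, for trypsins, elastases, chymotrypsins, carboxypeptidases, lipases and amylases, with the astacin-type protease genes c6ast3 and c6ast4. Of 30 tested, 28 were higher at 5 dpf and 1 was lower by edgeR at an adjusted p under 0.05, where 18.1% of all tested genes were higher and 32.1% changed in either direction. The median log2 fold change was 8.89 over the list and 0.09 over all tested genes, against 10.48 for cuzd1.1 and 12.13 for cuzd1.2. The lower one was the amylase gene amy2al1 (log2 fold change -2.34, edgeR adjusted p = 0.00459). Enzyme genes with few or no 3 dpf counts passed the filter only through their 5 dpf counts, as the copies did. Examples are ctrb.2, with 2, 0 and 0 counts at 3 dpf, and ela2l, with 0 in each library. Such a gene could be tested only if it was high at 5 dpf, so the filter itself favours the count of higher genes.

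The enzyme gene of highest RPKM was prss1, a trypsinogen. It read 75.6, 217.3 and 63.3 CPM at 5 dpf, against 0.277, 0.141 and 0.500 CPM at 3 dpf (log2 fold change 8.59, SE 0.78, edgeR adjusted p = 0.00115). Its mean of 136.3 ± 98.3 RPKM at 5 dpf lay beside the 130.7 ± 21.0 RPKM of cuzd1.1 (SD, n = 3 each). prss59.2, also a trypsin-type gene, averaged 136.0 ± 93.1 RPKM at 5 dpf, and its near copy prss59.1 averaged 86.4 ± 63.8 RPKM (SD, n = 3 each). The cuzd1 copies thus stood at a mean RPKM like that of the top enzyme genes at 5 dpf, but not library by library. prss1 read 86.8, 249.5 and 72.7 RPKM, against 153.3, 127.2 and 111.7 for cuzd1.1 and 107.2, 97.1 and 102.1 for cuzd1.2. Both copies were above prss1 in replicates 1 and 3 and below it in replicate 2. The smaller SD of the copies describes their choice for evenness.

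Every one of the 10 enzyme genes of highest RPKM was highest in 5 dpf replicate 2. Among them the highest 5 dpf library exceeded the lowest 3.09-fold in the chymotrypsinogen gene ctrb.1 and 5.36-fold in ctrb.2, with ctrb.3 between. The elastase genes ela2 and ela3l averaged 63.2 ± 53.4 and 58.1 ± 35.1 RPKM at 5 dpf, and the carboxypeptidase gene CPA1 (ENSDARG00000021339) averaged 62.9 ± 48.3 RPKM (SD, n = 3 each). The elastase gene ela2l had 0 counts in every 3 dpf library, and its 23289 counts at 5 dpf make it at least 7396-fold higher, taking 3 counts over the 3 dpf libraries as the limit. That bound was 3534-fold without 5 dpf replicate 2. Several enzyme genes are near copies of a neighbour, so their separate levels are uncertain.

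The enzyme peak in replicate 2 was shared across the list. Of the 30 genes, 27 were highest in 5 dpf replicate 2, 2 in replicate 3 and 1 in replicate 1. The median log2 ratio of highest to lowest was 1.79 over the enzyme list and 0.89 over all genes. The enzyme median was 0.31 without 5 dpf replicate 2, so that library sets it. In the same setting the spread was 0.37 for cuzd1.1 and 0.01 for cuzd1.2. Without that library the enzyme median was thus no larger than the spread of cuzd1.1. Summed, the enzyme genes read 681.7, 2108 and 626.4 CPM at 5 dpf, against 13.01, 12.64 and 14.77 CPM at 3 dpf. At 3 dpf most of that sum was amy2al1, at 8.61 CPM on average.

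Within replicate 2 the copies did not follow the enzymes. As a percent of the summed enzyme counts, which no scaling changes, the pair came to 84.6%, 23.7% and 77.0% in the 5 dpf libraries and to 0.0734%, 4.27% and 1.02% in the 3 dpf libraries. The 5 dpf values differ 3.57-fold, with replicate 2 far below the others. At 3 dpf the enzyme sum was mostly amy2al1, the enzyme gene that was lower at 5 dpf. The differences among the 3 dpf values follow the few reads of the pair, 1, 61 and 19. With library size, RLE and upper-quartile scaling the enzyme list had a median log2 spread of 1.79 to 2.56, above that of either copy in each scaling. Of 19 enzyme genes at 10 CPM or more at 5 dpf, 0 had a highest library within 1.5-fold of the lowest, as both copies did with TMM, and 41.6% of 9354 genes at that level did. The 1.5-fold limit was chosen after the values were seen.

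**Figure D2:**
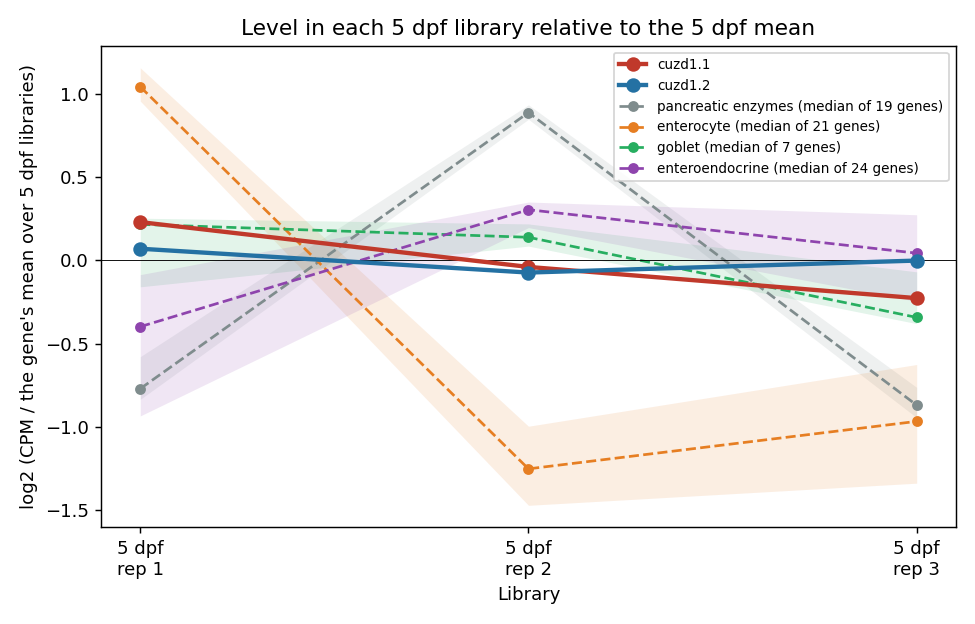
Log2 ratio of the TMM-scaled CPM in each 5 dpf library to the gene's 5 dpf mean, for each cuzd1 copy and as the median (dashed line) and interquartile range (band) of 4 gene lists at 10 CPM or more. The enzyme list peaks in replicate 2 and the enterocyte list in replicate 1, while cuzd1.2 stays close to the zero line and the goblet list runs near cuzd1.1.

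The list for zymogen granule proteins and acinar regulators gave a mixed picture. Whether each member stands for acinar cells in these pools was not tested. Of its 13 tested genes, 6 were higher at 5 dpf, 1 was lower and 6 did not pass, where 18.1% of all tested genes were higher and 14.1% lower. The 2 of highest RPKM were spink4, a Kazal-type protease inhibitor, and rab3da, a vesicle GTPase whose mammalian counterpart sits on zymogen granules. spink4 read 48.7, 18.1 and 12.9 CPM at 5 dpf, with 3.38 ± 1.15 CPM at 3 dpf (SD, n = 3; log2 fold change 2.97, edgeR adjusted p = 0.00715). rab3da read 35.4, 58.9 and 47.1 CPM at 5 dpf, with 32.6 ± 11.9 CPM at 3 dpf (SD, n = 3; edgeR adjusted p = 0.222). Neither was near 0 at 3 dpf, unlike the copies. Of the others, all that were called are named after their values were seen. pdia2, a disulfide isomerase enriched in pancreas, read 76.1, 132.7 and 69.7 CPM at 5 dpf, against 2.48 ± 0.486 CPM at 3 dpf (SD, n = 3; edgeR adjusted p = 0.000822). RBPJL, an acinar transcription factor, read 3.71, 17.7 and 9.22 CPM at 5 dpf, against 0.988 ± 0.326 CPM at 3 dpf (SD, n = 3; edgeR adjusted p = 0.00655). PTF1A, its partner in acinar cells, read 2.475, 2.626 and 2.104 CPM at 5 dpf, against 1.00 ± 0.423 CPM at 3 dpf (SD, n = 3; edgeR adjusted p = 0.0398). The call of PTF1A was lost in 5 of 15 alternative fits, among them those without 3 dpf replicate 1, 3 dpf replicate 3, 5 dpf replicate 2 or 5 dpf replicate 3 (edgeR adjusted p up to 0.153). NR5A2, a nuclear receptor gene active in acinar cells and other gut tissues, was the lower gene, at 18.4, 12.0 and 22.1 CPM at 5 dpf, against 61.6 ± 18.3 CPM at 3 dpf (SD, n = 3; log2 fold change -1.82, edgeR adjusted p = 0.00637). SYCN (ENSDARG00000103687), for the zymogen granule protein syncollin, read 5.87, 18.6 and 3.52 CPM at 5 dpf and had 0, 0 and 2 counts at 3 dpf (edgeR adjusted p = 0.00184). It was thus near absent at 3 dpf as the copies were, and it too passed the filter only through its 5 dpf counts. rab3db read 21.0, 25.7 and 22.7 CPM at 5 dpf, against 8.28 ± 5.14 CPM at 3 dpf (SD, n = 3; edgeR adjusted p = 0.0286). Of the genes named here, pdia2, RBPJL, SYCN, rab3da, rab3db and PTF1A had their highest 5 dpf level in replicate 2, as most enzymes did. spink4 was highest in replicate 1 and NR5A2 in replicate 3. PTF1A and rab3db were even at 5 dpf, with spreads of 1.25-fold and 1.23-fold. Of the 8 genes of the list at 10 CPM or more at 5 dpf, rab3db was the 1 within 1.5-fold.

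Lists for the epithelial cell types of the gut give other patterns to hold the copies against. Of 23 tested enterocyte genes 21 were higher at 5 dpf, where 18.1% of all tested genes were. Replicate 1 was the highest 5 dpf library for 21 of the 23, and for 9265 of 21833 genes overall. The fatty acid binding protein gene FABP1 (ENSDARG00000059227) read 4471, 470.4 and 539.0 CPM at 5 dpf, and FABP2 read 5969, 1263 and 1667 CPM. The median log2 ratio of replicate 1 to the mean of the other 5 dpf libraries was 2.05 for the enterocyte list, -1.04 for the enzyme list and -0.03 for all genes. For cuzd1.1 it was 0.36 and for cuzd1.2 it was 0.11, close to 0 beside both lists. These values are with TMM. With library size alone replicate 1 stood at 0.657 of the mean of the others for cuzd1.1 and at 0.549 for cuzd1.2.

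For goblet cell genes, which make and secrete mucus, that median was 0.37, near the value of cuzd1.1. Of 12 tested goblet genes 9 were higher at 5 dpf, where 18.1% of all tested genes were, with a median log2 fold change of 2.07. AGR2, a mucin-folding isomerase, read 682.0, 621.5 and 433.7 CPM at 5 dpf, against 69.0 ± 27.8 CPM at 3 dpf (SD, n = 3). CREB3L1, a secretory transcription factor, read 137.7, 129.8 and 74.9 CPM at 5 dpf, against 21.3 ± 3.30 CPM at 3 dpf (SD, n = 3). As a percent of the summed goblet counts the pair came to 44.1%, 40.2% and 53.2% at 5 dpf, a 1.33-fold range. Of the 9 lists of cell types and acinar genes other than the enzymes, none gave a narrower range, which ran up to 3.99-fold for hepatocyte genes. The list of zymogen granule and acinar regulator genes came close, at 1.41-fold. Lists that stand for no cell type gave narrower ranges, 1.17-fold for CUB domain genes and 1.09-fold for zona pellucida domain genes. A narrow range thus does not single out a cell type. The hepatocyte sum was mostly 1 gene, cyp2y3, at 5 dpf. That gene read 652.9, 86.1 and 186.9 CPM, of list sums of 692.4, 150.3 and 238.3 CPM. At 3 dpf the goblet list summed to 158.8, 200.2 and 253.0 CPM, and the copies came to 0.00601%, 0.269% and 0.0597% of that sum.

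Of 28 enteroendocrine genes, which encode gut hormones and their regulators, 13 were higher at 5 dpf and 3 lower, where 18.1% of all tested genes were higher and 14.1% lower. The peptide genes PYY and penka read 1786, 3300 and 2625 CPM and 1539, 2206 and 1542 CPM at 5 dpf, with means of 214.8 ± 74.9 and 124.9 ± 40.9 CPM at 3 dpf (SD, n = 3 each). Of the 24 at 10 CPM or more, 7 had a highest 5 dpf library within 1.5-fold of the lowest, against 3 of 7 goblet genes, 1 of 21 enterocyte genes and 2 of 16 genes of lysosome-rich enterocytes, cells that take up protein from the gut lumen. Of 17 tested genes of those cells 13 were higher at 5 dpf, led in RPKM by FABP6 and ctsl.1. Over all 9354 genes at that level the share was 41.6%, so each of these lists but the goblet one lay below it. These comparisons are across genes of the same 6 libraries, and genes are not replicates.

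**Figure D3:**
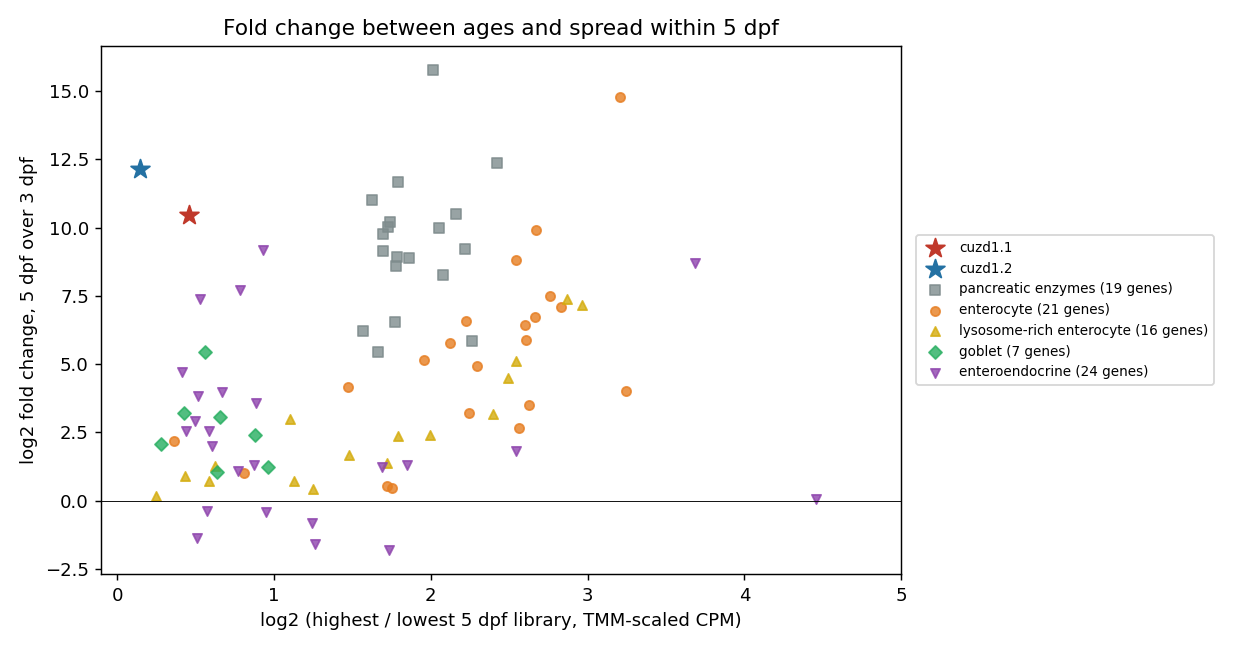
Fitted log2 fold change of 5 dpf over 3 dpf against the log2 ratio of the highest to the lowest 5 dpf library, for the cuzd1 copies and the genes of 5 lists at 10 CPM or more at 5 dpf. The copies stand at 10.48 and 12.13 on the vertical axis with a spread of 0.46 and 0.14. Some enzyme genes reach those fold changes, and the enzyme genes shown have a spread above 1.5. The fitted values of genes with 0 counts at 3 dpf, the topmost points, depend on the prior count.

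In the pancreatic islet and liver lists the share of genes higher at 5 dpf was near that of all tested genes, 18.1%. Endocrine pancreas genes had 2 of 11 higher, with the glucagon gene gcga at 290.5, 299.9 and 225.1 CPM at 5 dpf and 10.4 ± 5.12 CPM at 3 dpf (SD, n = 3). The next by RPKM was the somatostatin gene sst2. Both gcga and sst2 are also on the enteroendocrine list, so they do not stand for islets alone. The other gene called higher was the insulin gene ins, at 2.89, 3.07 and 5.86 CPM at 5 dpf (edgeR adjusted p = 0.00638). Hepatocyte genes had 2 of 11 higher and 1 lower, led in RPKM by cyp2y3 and fabp10a. cyp2y3 was not called (edgeR adjusted p = 0.465). fabp10a read 9.49, 9.83 and 8.065 CPM at 5 dpf, a 1.22-fold spread. At 3 dpf it averaged 0.519 ± 0.361 CPM (SD, n = 3; edgeR adjusted p = 0.00346). BEST4-type genes, of an ion-handling enterocyte class, had 7 of 11 higher and 1 lower, led by ca2 and BEST4. Tuft-type genes, of chemosensory cells, had 5 of 8 higher, led by rgs13a and pou2f3. The part of any of these cells in the level of the copies was not tested.

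Genes with the same kinds of domain changed far less at the median. Of 46 tested CUB domain genes other than the copies, 16 were higher at 5 dpf and 5 lower, where 18.1% of all tested genes were higher and 14.1% lower. Their median log2 fold change was 0.89, against 10.48 and 12.13 for the copies. The 2 of highest RPKM were lrp10, a receptor of the lipoprotein receptor family, and cdcp1a, a membrane protein. lrp10 averaged 23.8 RPKM at 5 dpf (edgeR adjusted p = 0.739) and cdcp1a 13.01 RPKM (edgeR adjusted p = 0.665). Summed, the 51 genes of the list read 645.9, 656.7 and 597.7 CPM at 5 dpf, against 654.8, 658.7 and 614.7 CPM at 3 dpf. The pair alone came to 76.1% to 89.3% of that sum at 5 dpf, against 0.0819% or less at 3 dpf.

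Of 11 tested zona pellucida domain genes other than the copies 0 passed in either direction by edgeR. At an unadjusted p under 0.05 edgeR gave 3 that were higher and 0 lower, and DESeq2 called 2 higher and 0 lower after adjustment. The 2 of highest RPKM at 5 dpf were TGFBR3, a co-receptor for transforming growth factor beta, at 0.850 RPKM, and zp3d.1, an egg-coat gene, at 0.349 RPKM. Summed, the 25 genes of that list read 10.4, 8.38 and 8.80 CPM at 5 dpf, against 4.11, 4.37 and 8.10 CPM at 3 dpf. Beside that sum, which leaves out the copies, the pair came to 576.6, 499.7 and 482.6 CPM at 5 dpf.

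No tested gene near the pair changed as it did. The 5 annotated genes below the pair on chromosome 17 are ifi44e, IKZF5, HMX3, HMX2 and GPR26. ifi44e, an interferon-induced type of gene, lies 1528 bases from cuzd1.2 on the same strand. It had 18, 8 and 6 counts at 5 dpf, a mean of 0.111 CPM, and 0 counts at 3 dpf. It was too low to test, so the size of its change is not known. IKZF5, a zinc finger gene, was lower at 5 dpf, at 8.56 ± 1.47 CPM against 15.9 ± 1.06 CPM at 3 dpf (SD, n = 3 each; log2 fold change -0.89, edgeR adjusted p = 0.0162). The homeobox genes HMX3 and HMX2 were higher at 5 dpf. HMX3 averaged 6.73 ± 2.28 CPM at 5 dpf and 1.32 ± 0.148 CPM at 3 dpf (SD, n = 3 each; edgeR adjusted p = 0.00331), and HMX2 stayed under 1 CPM on average. GPR26, a receptor gene 216100 bases away, had 0 counts at 5 dpf and was not tested.

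On the other side, plekha1a, which encodes a membrane-binding adaptor, starts 3499 bases from cuzd1.1 on the opposite strand. It read 17.6, 23.8 and 23.4 CPM at 5 dpf, against 24.7, 21.4 and 25.3 CPM at 3 dpf, and the ages overlapped (log2 fold change -0.14, SE 0.20, edgeR adjusted p = 0.615). Beyond it lie a 5S_rRNA gene too low to test, the protease gene HTRA1, the LIM domain gene crip3 and slc22a7b.3, an organic anion transporter gene. HTRA1 averaged 1.18 ± 0.905 CPM at 5 dpf and 0.541 ± 0.138 CPM at 3 dpf (SD, n = 3 each; edgeR adjusted p = 0.268). crip3 averaged 0.480 ± 0.133 CPM at 5 dpf and 0.121 ± 0.0747 CPM at 3 dpf (SD, n = 3 each; edgeR adjusted p = 0.0416). slc22a7b.3, 98293 bases away, read 13.7, 2.42 and 4.30 CPM at 5 dpf, against 0.525, 0.804 and 0.914 CPM at 3 dpf (log2 fold change 3.18, edgeR adjusted p = 0.0114). Of the 10 neighbours 7 were tested, 4 were higher and 1 was lower at 5 dpf, where 18.1% of all tested genes were higher and 14.1% lower, and the largest log2 fold change among them was 3.23, of HMX2. Of these calls that of HMX3 held in 15 of 15 alternative fits. Those of HMX2 (edgeR adjusted p = 0.0624) and slc22a7b.3 (0.0560) were lost without 3 dpf replicate 1. That of IKZF5 was lost in 3 fits, without 3 dpf replicate 1 or 2 and under library-size scaling, with an edgeR adjusted p of up to 0.172. That of crip3 was lost in 9 fits, including each without a 3 dpf library and those without 5 dpf replicate 2 or 3 (edgeR adjusted p up to 0.151).

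**Figure D4:**
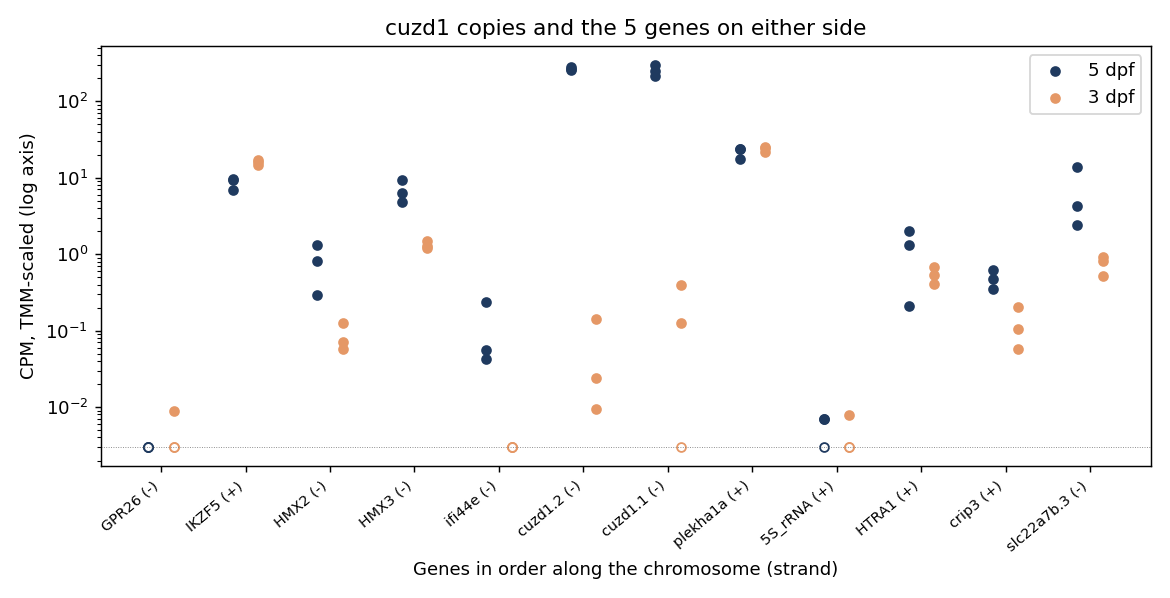
TMM-scaled CPM on a log axis for the cuzd1 copies and the 5 annotated genes on either side, in their order along the chromosome with strand in brackets; points are libraries, 5 dpf left of 3 dpf, and open symbols mark 0 counts. The copies are the highest genes of the stretch at 5 dpf, at 216.0 CPM or more. At 3 dpf they lie at 0.398 CPM or below, with other genes of the stretch above and below them.

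Across all 6 libraries the 10 genes nearest in pattern to the pair were found by the root mean square distance between centred log2 CPM profiles, over 9352 genes at 10 CPM or more at 5 dpf. The copies lay 0.90 apart on this scale, and each of those genes lay farther than that from the mean of the copies. Both copies were chosen for the same pattern, so their nearness describes the choice. A distance between genes and a distance to a mean are also not the same measure. The 10 were apoea, zgc:92161, mep1a.1, ela2l, ela2, prss59.1, UCP1, cyp2ad2, ctrb.1 and MEP1B (ENSDARG00000037533), at distances of 1.08 to 1.59, against a median of 6.04. apoea, a lipoprotein gene, averaged 608.8 ± 449.3 CPM at 5 dpf (SD, n = 3) and 0.268 CPM at 3 dpf. UCP1, a mitochondrial uncoupling protein gene, averaged 1170 ± 657.6 CPM at 5 dpf (SD, n = 3) and 0.625 CPM at 3 dpf. mep1a.1 and MEP1B encode meprin-type metalloproteases of the brush border, and 4 of the 10 are pancreatic enzyme genes. All 10 were near absent at 3 dpf, which the measure itself favours. With TMM their highest 5 dpf library exceeded the lowest by 3.07-fold in UCP1 to 9.23-fold in MEP1B, more than in either copy. With library size alone UCP1 spread 1.79-fold and zgc:92161 1.91-fold, less than the 1.97-fold of cuzd1.2.

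Within 3 dpf both copies had their highest level in replicate 2 and their lowest in replicate 1, from few counts. The same order of libraries held in 13 of 22 enterocyte genes detected at 3 dpf, 10 of 17 genes of lysosome-rich enterocytes and 7 of 26 enzyme genes. It held in 2 of 12 goblet genes, 1 of 28 enteroendocrine genes and 12.3% of 22349 genes overall. For cuzd1.2 the order of replicates 3 and 1 rests on 3 counts and 1 count, and their Poisson intervals overlap, so it is not resolved. The order was looked at after the values were seen, and it was not tested.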

How the data were processed

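RNA-seq counts were deposited for 6 libraries of sorted cells. The deposited files hold raw counts of read pairs, summed per gene over its exons. Per the file headers, the authors ran featureCounts 1.6.3 with its option for reverse-stranded libraries on GRCz11 and Ensembl release 115. Reads on several genes or places were not counted. The submitters' processing notes also name Trimmomatic 0.38, STAR 2.7.11 and Subread 1.6.3.

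From these counts edgeR 4.0.16 in R 4.3.3 (TMM, filterByExpr at 10 counts and 15 in total, quasi-likelihood F-test, two-sided) compared the ages over all 22386 genes kept, with Benjamini-Hochberg adjustment and a threshold of 0.05. CPM, RPKM, shares and distances were computed with pandas 2.3.3 and scipy 1.17.1. Log2 profiles used a prior count of 2. The SE of a log2 fold change was derived as its absolute value over the square root of the F statistic. Where a gene had 0 counts at 3 dpf, a fold was bounded with 3 counts over the 3 libraries. Intervals are at 95%.

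The copies and the gene lists were chosen with earlier results of these data known. Of 289 list entries 240 matched a gene, which gave 251 genes, where a gene is counted once in each list that holds it. The text names the 10 enzyme genes and, in each other list, the 2 genes of highest RPKM at 5 dpf, the 10 nearest in pattern, the 5 neighbours on each side and cldn15la, and others where stated. The 17 alternatives were other scalings (RLE, upper quartile, library size), filters, a replicate block, DESeq2 1.42.0, no mitochondrial genes, libraries left out, per-kilobase shares and a correlation in place of the distance. The library-size spread of the late and nearest genes, the pair as a percent of list sums, the count of even genes and the order of 3 dpf libraries were added after the data were seen.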

Additional observations from a re-analysis of the deposited data

How the results depend on the processing

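The log2 fold change of cuzd1.1 lay between 9.89 and 11.85 and that of cuzd1.2 between 11.64 and 13.81 in every alternative, both extremes without a 3 dpf library. Between 23 and 30 enzyme genes were called. The 23 were of 24 tested, with a filter of 1 CPM in 3 libraries. In the other fits 28 to 30 were called, of 30 or 31 tested. Genes called over the whole table numbered 7194, with 3849 under library-size scaling, 9155 with DESeq2, 3003 to 10628 with a library left out, and 11902 when 5 dpf replicate 1 and 3 dpf replicate 3 were both left out. The median over all genes shifted to 0.22 on the log2 scale with upper-quartile factors, against 0.09 with TMM. The log2 spread of the 5 dpf libraries was 0.98 for cuzd1.2 under library-size scaling and 0.16 for cuzd1.1 without both of those libraries. With a library left out it ran from 0.17 to 0.45 for cuzd1.1, 0.01 to 0.14 for cuzd1.2 and 0.31 to 1.79 for the enzyme median. The difference in share of cuzd1.1 was 0.277 percentage points per kilobase and ran from -30.5 to 11.6 points with a library left out (6.37 and 11.6 without 3 dpf replicates 2 and 3); 1 read sets the share of 3 dpf replicate 1. Ranking genes by Pearson correlation kept 0 of the 10 nearest genes, since it ignores size, and library-size scaling kept 10. The replicate numbers share no stated source, and equal numbers correlated at 0.092, -0.217 and 0.193. With a replicate block 5638 genes and 29 enzyme genes were called, and the log2 fold changes were 10.87 for cuzd1.1 and 12.35 for cuzd1.2. A 3 dpf level under 0.0238 to 0.0286 CPM, or 3 counts, cannot be told from 0 at this depth.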
